A study of Mus musculus with 8 samples.

Results

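Ccr2 encodes the receptor for the chemokine CCL2 and is the gene knocked out in the CCR2-/- mice of the study. It lies near the distal end of mouse chromosome 9, in a row of genes for chemokine receptors. The genes described here are Ccr2, the receptor genes Ccr1, Ccr3, Cxcr6 and Ccrl2, and the flanking genes Fyco1, Lztfl1, Sacm1l and Als2cl, 9 of the 22180 genes that the platform annotation names by a single symbol. They were taken from a list of names, which was chosen with earlier results of these data known. Each had exactly 1 transcript cluster, the set of probes that the array uses for a gene.

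The study hybridised RNA of CD4+CD25- T cells to 8 single-colour microarrays. The cells came from spleens of wild-type or CCR2-/- mice on the C57BL/6 background, 6 to 8 weeks old. The cells had been sorted into CD45RBhigh cells, a phenotype of naive T cells, and CD45RBlow cells, a phenotype of antigen-experienced ones. All cells of all groups were then stimulated with antibodies to CD3 and CD28, for 48 h per the sample protocols or 2 h per the series design. The labels do not settle which, and no unstimulated cells were measured. The 4 groups were wild-type CD45RBhigh, CCR2-/- CD45RBhigh, wild-type CD45RBlow and CCR2-/- CD45RBlow, with 2 arrays each, numbered replicate 1 and replicate 2. Nothing in the labels says that these came from separate mice. The p-values therefore reflect the spread among these samples alone. The labels also do not say how the Ccr2 allele was made or whether the CCR2-/- mice were littermates of the wild-type mice.

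The chemokine receptors of this cluster are proteins spanning the cell membrane that couple to inhibitory G proteins and steer migrating leukocytes along gradients of chemokines. CCR2 is best known for the exit of monocytes from the bone marrow, and is also found on memory T cells. CCR1 and CCR3 guide mainly myeloid cells, among them eosinophils for CCR3, CXCR6 marks tissue-homing effector T cells, and CCRL2 is an atypical receptor that binds chemerin without the usual signalling. The flanking genes have other tasks. FYCO1 links autophagosomes to the motors that carry them along microtubules. LZTFL1 regulates the traffic of the BBSome, a coat complex of cilia. SACM1L removes phosphate from phosphoinositides of the endoplasmic reticulum and Golgi.

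The deposited values are log2 expression values. Array medians lay between 4.92 and 5.05, and the 40th percentile of an array, which served as the lower limit for testing, lay between 4.53 and 4.63. Medians and 40th percentiles were highest on the replicate 2 arrays of CCR2-/- CD45RBhigh (5.05 and 4.62) and CCR2-/- CD45RBlow cells (5.05 and 4.63). Cd4 was at 11.5 to 11.7 on all arrays. The monocyte markers Lyz2 (3.75 to 4.03), Csf1r (4.19 to 4.46), Cd14 (4.11 to 4.32) and Adgre1 (4.04 to 4.19) lay below that limit on every array, as did 3 more of the 9 markers of that list on the array. The remaining 2, Cd68 (6.88 to 8.55) and Ly6c2 (8.01 to 9.27), lay above it on every array, both highest in CCR2-/- CD45RBhigh replicate 1. Cd68 was at 7.62 and 7.16 in wild-type and at 8.55 and 7.68 in CCR2-/- CD45RBhigh cells. In CD45RBlow cells it was at 7.54 and 7.05 in wild type and at 7.41 and 6.88 in CCR2-/- mice. The cell type behind these 2 transcripts was not tested. Xist, which is transcribed from an inactive X chromosome, ranged from 4.45 to 5.02 in replicate 1 and from 11.7 to 12.1 in replicate 2 of the groups. Kdm5d, a gene of the Y chromosome, ranged from 8.83 to 9.13 in replicate 1 and from 7.58 to 7.78 in replicate 2. The 2 arrays of a group were therefore not repeats of one RNA sample, and every group holds an array of each number.

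Of the 9 genes, 7 passed the filter on low values, which asks for a level at or above the 40th percentile on at least 2 arrays. Ccr1 reached it on 1 array and Ccr3 on 0, and both were left untested. Ccr2 reached it on 4 of the 4 CCR2-/- arrays and on 1 of the 4 wild-type arrays, so it entered the tests through the genotype in which it was higher. Fyco1, Lztfl1, Sacm1l, Als2cl and Cxcr6 reached it on all 8 arrays, and Ccrl2 on 7.

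**Figure D1:**
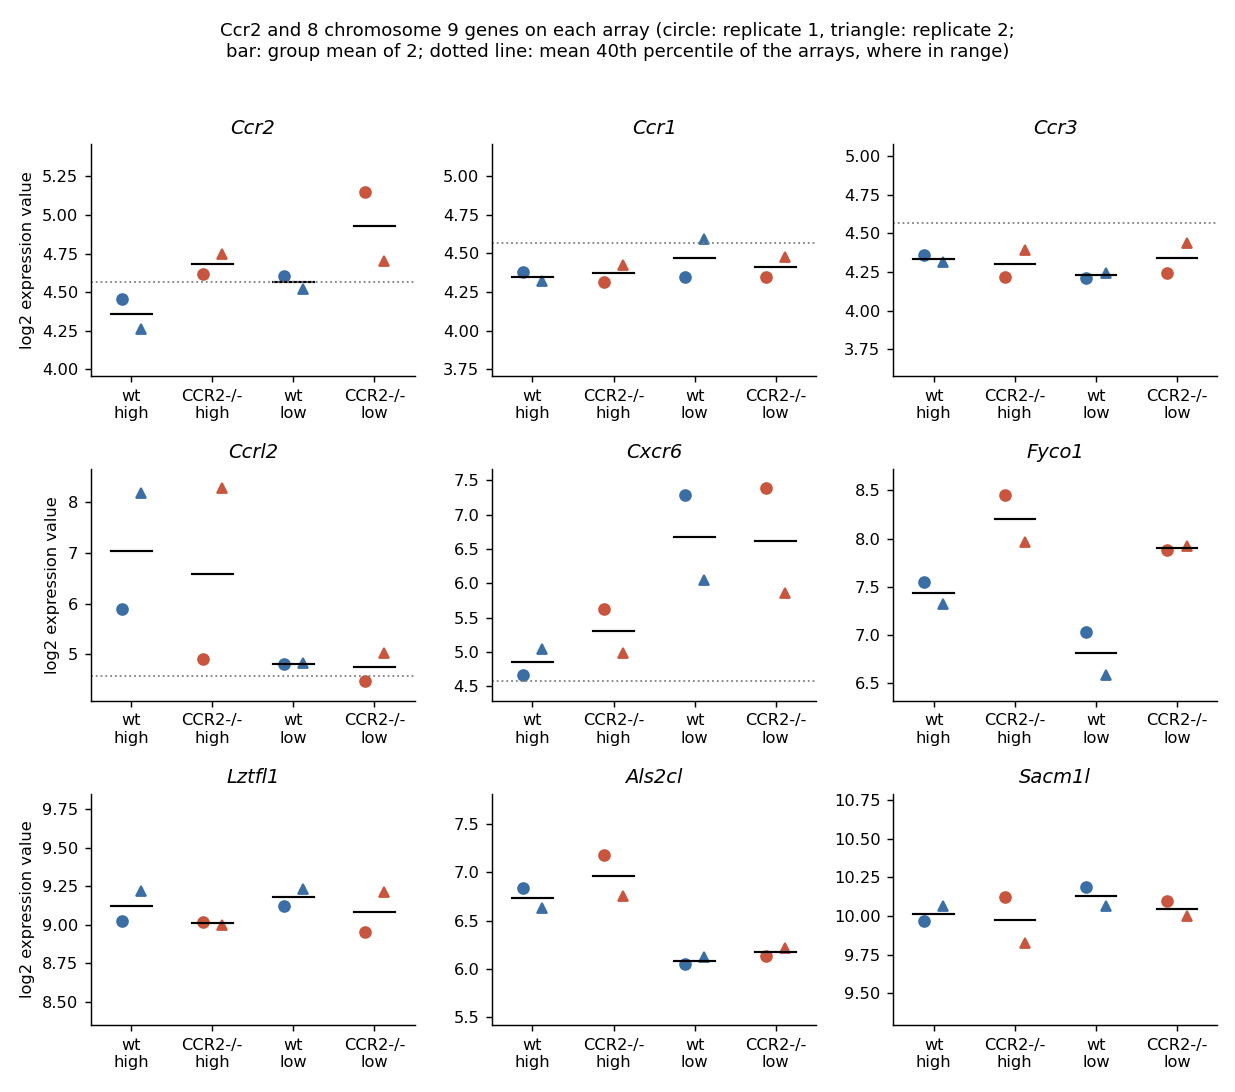
Deposited log2 expression value (vertical axis, own scale in each panel) of the 9 genes on the 8 arrays, by group (horizontal axis), with wild type in blue, CCR2-/- in red, a bar for the mean of a group's 2 arrays and a dotted line at the mean 40th percentile where it falls in range. The 4 CCR2-/- arrays of Fyco1 lie at 7.88 to 8.45, above the 4 wild-type arrays, while Ccr1 and Ccr3 stay near the dotted line or below it.

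Genotype was compared within each subset, to ask whether the targeted gene and its chromosomal neighbours differed between CCR2-/- and wild-type cells. Fyco1 stood out among the 9, 1.70-fold above wild type in CCR2-/- CD45RBhigh cells and 2.13-fold above it in CCR2-/- CD45RBlow cells. Ccr2 itself was slightly higher, not lower, on the CCR2-/- arrays. The other tested genes had differences within their errors. None of the 7 passed limma's test after Benjamini-Hochberg adjustment over all 13508 genes tested. No other gene passed either, so 0% of all genes were called in each subset.

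Ccr2, the targeted gene, had values of 4.45 and 4.26 in wild-type CD45RBhigh cells (replicates 1 and 2) and of 4.62 and 4.75 in CCR2-/- CD45RBhigh cells. In CD45RBlow cells it was at 4.61 and 4.52 in wild type and at 5.15 and 4.70 in CCR2-/- mice. The genotypes did not overlap in either subset, and the CCR2-/- arrays were the higher ones, as for 3.78% of all tested genes. Ccr2 had passed the filter through the CCR2-/- arrays, so its intervals and p describe the difference and do not test its direction. The log2 difference, always CCR2-/- minus wild type, was 0.32 (95% confidence interval -0.06 to 0.71) in CD45RBhigh cells and 0.36 (-0.02 to 0.75) in CD45RBlow cells. Averaged over the subsets it was 0.34 (interval 0.07 to 0.61, adjusted p = 0.940 by limma). These were low levels: the 27.0th percentile of its array for the lowest and the 53.5th for the highest. By group mean the order was wild-type CD45RBhigh (4.36 ± 0.13, mean ± SD, n = 2), wild-type CD45RBlow (4.56 ± 0.06), CCR2-/- CD45RBhigh (4.68 ± 0.09) and CCR2-/- CD45RBlow (4.93 ± 0.32). Neighbours in that order differed by at most 0.24, and of the neighbouring groups only the last pair overlapped. Which exons the probes cover and which the Ccr2 allele alters is not given in the sources used here, so these levels do not check the genotype labels. In bulk samples such as these, fewer cells of a type and less transcript per cell cannot be told apart.

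The 3 tested genes whose values followed those of Ccr2 most closely over the 8 arrays were Mrps21, a protein of the mitochondrial ribosome (Pearson r = 0.957), Nisch (0.943) and Pcyox1l (0.934). These correlations describe 8 arrays and were drawn from 13508 genes.

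The upstream sequence of Fyco1 is shown because Fyco1 had the largest genotype difference of the 9 genes in both subsets, and because a repeat lies before its start in the reference. The RefSeq window on GRCm38.p6, chr9:123851900-123852149 on the minus strand, covers the 250 bases before the more upstream of 2 annotated starts, written 5′ to 3′. Capitals mark GGGAGTTGTAG, the first 11 letters of the longest string (22 letters) that occurs 5 times in it.

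Fyco1: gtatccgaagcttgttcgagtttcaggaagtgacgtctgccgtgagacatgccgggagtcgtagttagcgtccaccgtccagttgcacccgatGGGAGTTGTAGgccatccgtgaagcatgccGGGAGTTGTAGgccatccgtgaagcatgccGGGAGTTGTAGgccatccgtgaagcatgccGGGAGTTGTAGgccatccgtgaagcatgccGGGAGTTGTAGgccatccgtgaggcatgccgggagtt

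Each copy began 30 bases after the one before, and 4 of the copies were identical over the whole 30 bases. Searched on both strands, GGGAGTTGTAG was found in 0.42% of the 32851 upstream windows of this length in the RefSeq table, and at least 2 copies were found for 2 genes, Fyco1 and Phb. The letters were chosen after the sequence was read. The GC box (GGGCGG), the CCAAT box (CCAAT), the TATA box (TATAAA), the AP-1 motif (TGANTCA) and the STAT motif (TTCNNNGAA) had 0 matches in this window. The window is the C57BL/6J reference and was not read from these mice.

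Fyco1 had values of 7.55 and 7.32 in wild-type CD45RBhigh cells and of 8.45 and 7.96 in CCR2-/- CD45RBhigh cells. In CD45RBlow cells it was at 7.03 and 6.59 in wild type and at 7.88 and 7.92 in CCR2-/- mice. The lowest of the 4 CCR2-/- arrays (7.88) was above the highest of the 4 wild-type arrays (7.55), whatever the subset. How many of all genes were separated in this way was not counted. Within both subsets, 3.78% of all tested genes were higher in CCR2-/- cells without overlap. The log2 difference was 0.77 in CD45RBhigh cells (1.70-fold, interval 0.29 to 1.25, adjusted p = 1 by limma). It was 1.09 in CD45RBlow cells (2.13-fold, interval 0.61 to 1.57, adjusted p = 0.9998 by limma). Averaged over both it was 0.93 (1.90-fold, interval 0.59 to 1.27, adjusted p = 0.940 by limma). With the replicate number as a block the adjusted p of this averaged difference was 0.383 by limma. Within replicate 1 the difference was 0.90 in CD45RBhigh and 0.85 in CD45RBlow cells, and within replicate 2 it was 0.64 and 1.33. All 4 of these differences between arrays of one number were above 0.

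By the size of the increase Fyco1 was in place 3 of 13508 genes in CD45RBlow cells and in the averaged comparison, and in place 19 in CD45RBhigh cells. By p its places were 3, 3 and 29. A high place in such an order is not a call, since no gene passed the adjusted test. The interval of the difference between the subsets, CD45RBlow minus CD45RBhigh, ran from -0.36 to 1.0 around 0.32 (adjusted p = 0.9998 by limma), so an equal response and a larger one in CD45RBlow cells are both inside it.

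**Figure D2:**
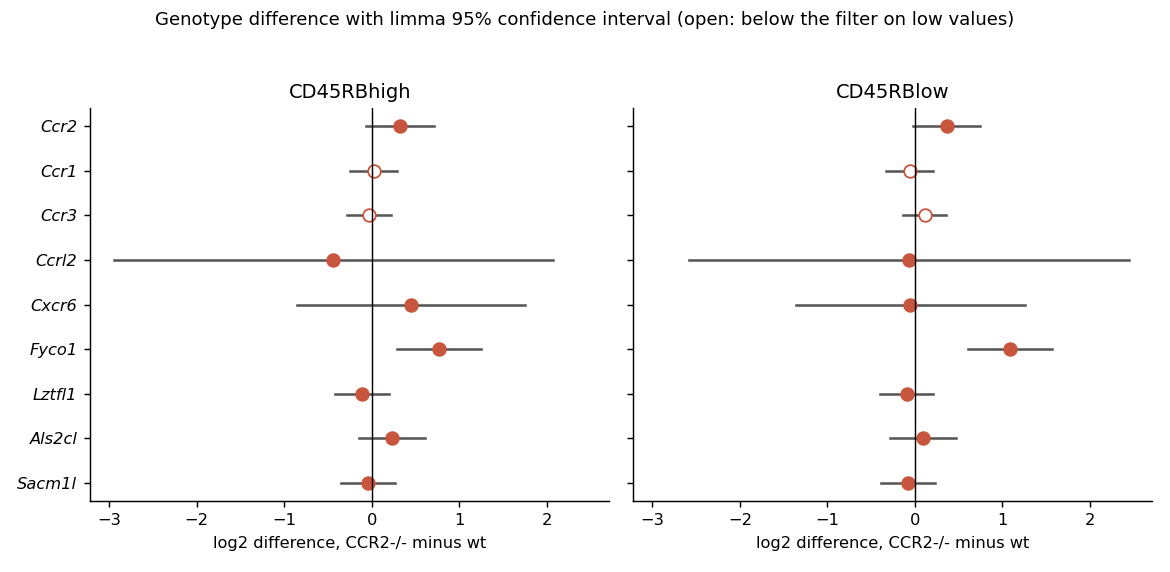
Log2 difference between CCR2-/- and wild-type cells (horizontal axis) for each of the 9 genes (vertical axis) in CD45RBhigh cells (left) and CD45RBlow cells (right), with limma's 95% confidence interval and open circles for the untested genes. The interval of Fyco1 lies above 0 in both panels (0.29 to 1.25 and 0.61 to 1.57), and those of Ccrl2 are the widest.

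Cxcr6 lies inside the span of Fyco1 on the opposite strand in the RefSeq annotation of GRCm38.p6, and the array has a separate cluster for each. Cxcr6 did not show the genotype separation of Fyco1 in CD45RBlow cells. It was at 7.29 and 6.05 in wild-type and at 7.38 and 5.85 in CCR2-/- CD45RBlow cells, so the genotypes overlapped and the arrays of one number were alike (log2 difference -0.05, interval -1.36 to 1.26). In CD45RBhigh cells it was at 4.66 and 5.04 in wild type and at 5.62 and 4.98 in CCR2-/- mice. That difference of 0.45 (interval -0.85 to 1.76) came from replicate 1, where it was 0.96, against -0.06 in replicate 2. Both intervals of Cxcr6 contain the difference measured for Fyco1 in the same subset, so a change of that size is not excluded.

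In CD45RBhigh cells Ccrl2 varied more between the replicate numbers than between the genotypes. Its values in CD45RBhigh cells were 5.89 and 8.17 in wild type and 4.91 and 8.27 in CCR2-/- mice, high on both replicate 2 arrays. In CD45RBlow cells all 4 arrays were low, at 4.80 and 4.83 in wild type and at 4.47 and 5.03 in CCR2-/- mice. The genotype difference was -0.44 in CD45RBhigh (interval -2.95 to 2.07) and -0.06 in CD45RBlow cells (-2.58 to 2.45). In CD45RBhigh cells so wide an interval leaves room for large changes in either direction. The model uses one spread of a gene for all 4 groups. The SD of the 2 arrays was 1.61 (wild type) and 2.37 (CCR2-/-) in CD45RBhigh cells, against 0.02 and 0.40 in CD45RBlow cells. The width in CD45RBlow cells thus comes mostly from the CD45RBhigh arrays. The step from replicate 1 to replicate 2 was 2.28 in wild-type and 3.35 in CCR2-/- CD45RBhigh cells, against 0.03 and 0.57 in CD45RBlow cells. What the replicate numbers stand for is not given in the labels, and the part of sex, whose linked genes Xist and Kdm5d move with them, was not tested.

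Ccr1 was at 4.38 and 4.32 in wild-type and at 4.31 and 4.43 in CCR2-/- CD45RBhigh cells, and at 4.35 and 4.596 in wild-type and 4.35 and 4.48 in CCR2-/- CD45RBlow cells. Ccr3 was at 4.36 and 4.31, 4.22 and 4.39, 4.21 and 4.24, and 4.24 and 4.44 in the same order of groups. Both receptors thus stayed near the floor of the array in all groups. In a fit without the filter, Ccr1 differed by 0.02 in CD45RBhigh and -0.06 in CD45RBlow cells, and Ccr3 by -0.03 and 0.11. The values of Ccr3 in CD45RBlow cells did not overlap between genotypes, by a gap of less than 0.01.

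Lztfl1 was at 9.03 and 9.22 in wild-type and at 9.02 and 9.0 in CCR2-/- CD45RBhigh cells, and at 9.12 and 9.23 in wild-type and 8.95 and 9.21 in CCR2-/- CD45RBlow cells. Its genotype differences were -0.11 (interval -0.42 to 0.19) and -0.10 (-0.40 to 0.21). Sacm1l was at 9.97 and 10.06 in wild-type and at 10.13 and 9.82 in CCR2-/- CD45RBhigh cells, and at 10.19 and 10.07 in wild-type and 10.10 and 10.00 in CCR2-/- CD45RBlow cells. It differed by -0.04 (interval -0.35 to 0.27) and -0.08 (-0.39 to 0.23). For these neighbours of Fyco1 the intervals exclude a change of the size measured for Fyco1 in the same subset.

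Als2cl, which with Ccrl2 lies farther from Ccr2 than the rest, differed by 0.23 between genotypes in CD45RBhigh (interval -0.14 to 0.61) and by 0.09 in CD45RBlow cells (-0.28 to 0.47). Counted over the 7 tested genes, the genotypes did not overlap for 3 in CD45RBhigh cells (Ccr2 and Fyco1 higher, Lztfl1 lower in CCR2-/-) and for 3 in CD45RBlow cells (Ccr2, Fyco1 and Als2cl higher). Over all tested genes this held for 26.4% in CD45RBhigh and 30.5% in CD45RBlow cells, so such counts are not far from the background. Ccr2 and Fyco1 were higher without overlap in both subsets, as were 3.78% of all tested genes, and for Ccr2 the filter favoured that direction. Over all genes 1.97% were lower without overlap in both subsets, and none of the 7 was. For Lztfl1 and Als2cl the gap between the nearest arrays of the genotypes was under 0.02.

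The unadjusted tests show where the 7 genes sit. In limma, 354 genes (2.62%) had an unadjusted p under 0.05 for genotype in CD45RBhigh cells, 298 (2.21%) in CD45RBlow cells and 521 (3.86%) in the average of both, fewer than 5% in each case. Among the 7 genes this held for Fyco1 in both subsets and in the average. Ccr2, which entered the tests through the genotype in which it was higher, is not counted here. The interaction, the difference of the genotype effects between subsets, had 0 calls and 160 genes (1.18%) with an unadjusted p under 0.05, none of them among the 7.

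To place Fyco1 among its neighbours, the 50 named genes on each side of Ccr2 in gene order were listed, with the members left out. As Ccr2 is close to the end of the chromosome, 44 of the 47 listed genes lie on the centromeric side and 3 beyond it. The annotation gave clusters for 44 of the 47, and 25 were tested. None passed the adjusted test for genotype. Their median difference was 0.03 in CD45RBhigh and 0.06 in CD45RBlow cells, beside 0.02 and 0.03 over all genes tested. The largest size of a difference was 0.40 in CD45RBhigh cells (Tmem42, lower in CCR2-/-) and 0.32 in CD45RBlow cells (Gask1a, lower in CCR2-/-), so 0 of the 25 came up to Fyco1 in the same subset. Lars2, a mitochondrial leucyl-tRNA synthetase, differed by 0.08 and 0.10, and Limd1, an adaptor protein, by 0.03 and 0.01. The genotype difference of Fyco1 therefore had no counterpart of its size among the tested genes on this stretch, although genes below the filter could not be read, among them the receptor genes Xcr1, Ccr1, Ccr1l1 and Ccr3 between Fyco1 and Ccr2.

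**Figure D3:**
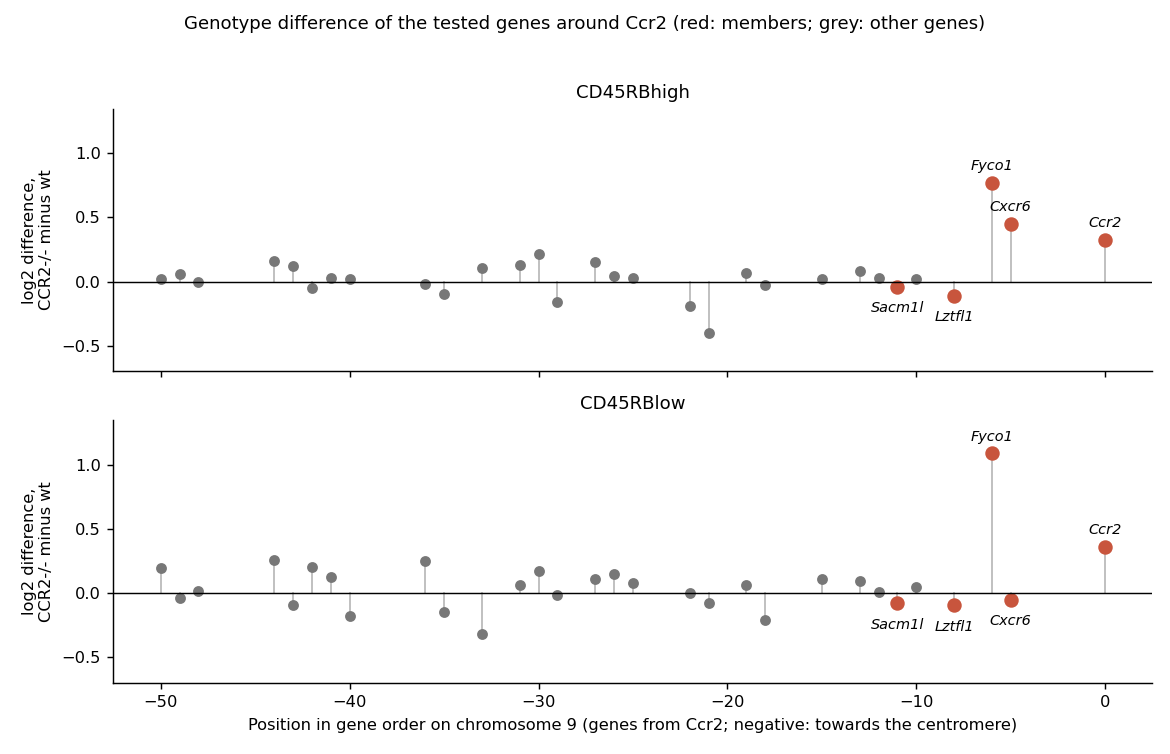
Log2 difference between CCR2-/- and wild-type cells (vertical axis) of the tested genes within 50 places of Ccr2 in the gene order of chromosome 9 (horizontal axis, in genes, Ccr2 at 0) for CD45RBhigh cells (top) and CD45RBlow cells (bottom), with the genes described here in red. Fyco1 stands at 0.77 and 1.09 while none of the 25 grey genes exceeds 0.40 in size.

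The same arrays show how the 9 genes differed between the sorted subsets, as the mean over both genotypes of CD45RBlow minus CD45RBhigh. Als2cl fell in CD45RBlow cells, to a level 1.65-fold lower than in CD45RBhigh cells, and was the only one of the 7 tested genes that passed limma's test. Over all genes 409 passed (3.03%), a count that ran from 39 (without wild-type CD45RBlow replicate 1) to 547 (without CCR2-/- CD45RBhigh replicate 2) with 1 array left out. Cxcr6 was higher in CD45RBlow cells of both genotypes, and passed only when the replicate number was in the model. Ccrl2 had the largest difference and the largest error.

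The sequence upstream of Als2cl is shown as that of the one gene with a call. The RefSeq window on GRCm38.p6, chr9:110879924-110880173 on the plus strand, holds the 250 bases before the more upstream of 2 annotated starts, with the 1 match to the GC box (GGGCGG, both strands searched) in capitals.

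Als2cl: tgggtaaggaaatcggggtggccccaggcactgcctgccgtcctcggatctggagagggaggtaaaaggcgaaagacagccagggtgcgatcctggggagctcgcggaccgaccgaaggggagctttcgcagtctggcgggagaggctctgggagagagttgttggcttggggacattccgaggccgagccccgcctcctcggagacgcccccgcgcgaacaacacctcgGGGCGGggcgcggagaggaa

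The window was 67.2% G and C, against 58.8% for that of Fyco1 and a median of 52.4% over all windows. The GC box was present in 32.7% of all windows. The CCAAT box, TATA box, AP-1 and STAT motifs named above had 0 matches here as well.

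Als2cl was at 6.84 and 6.63 in wild-type and at 7.18 and 6.75 in CCR2-/- CD45RBhigh cells. It was at 6.05 and 6.12 in wild-type and at 6.14 and 6.22 in CCR2-/- CD45RBlow cells. All 4 CD45RBlow arrays lay below all 4 CD45RBhigh arrays, and the share of all genes separated in this way was not counted. Within both genotypes, the subsets of 20.2% of all tested genes did not overlap, in one direction. The mean difference of Als2cl was -0.72 (1.65-fold lower, interval -0.99 to -0.45, adjusted p = 0.0266 by limma). It was -0.65 in wild type and -0.79 in CCR2-/- cells, and lay between -1.05 and -0.50 in the 4 pairs of arrays with one genotype and number. Leaving out 1 array ended the call in 6 of 8 cases: wild-type CD45RBhigh replicate 1 (adjusted p = 0.0880) or replicate 2 (0.0691), wild-type CD45RBlow replicate 1 (0.142) or replicate 2 (0.0822), and CCR2-/- CD45RBlow replicate 1 (0.102) or replicate 2 (0.0576), with differences of -0.77 to -0.67.

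The tested genes that followed Als2cl most closely over the 8 arrays were Dguok, a mitochondrial deoxyguanosine kinase (Pearson r = 0.995), Ms4a4b, a membrane protein of T cells (0.992), and the gene model Gm4759 (0.989). The mean log2 level of the 7 B cell markers on the array also differed between the subsets. It was 5.26 to 6.10 in CD45RBhigh and 5.00 to 5.12 in CD45RBlow cells. The highest mean was that of CCR2-/- CD45RBhigh replicate 1, the array with the highest Als2cl. Single markers were mixed. In replicate 2, Cd79b, Ms4a1, Pax5 and Ighm were higher in CD45RBhigh cells of both genotypes, but Cd22 and Blk were lower. Cd22 was at 3.96 in wild-type and 4.03 in CCR2-/- CD45RBhigh cells there, against 4.19 and 4.12 in CD45RBlow cells. Ighm was the 1 marker that passed (-1.03, adjusted p = 0.0128 by limma), and Cd79a was at 3.77 to 3.91 on the CD45RBlow arrays and at 3.90 to 5.86 on the CD45RBhigh arrays. The 2 CD8 T cell markers had a mean of 6.16 to 6.84 in CD45RBhigh and 5.799 to 5.93 in CD45RBlow cells, and were likewise highest in CCR2-/- CD45RBhigh replicate 1. Of these, Cd8b1 was at 7.76 to 8.78 in CD45RBhigh and at 6.97 to 7.38 in CD45RBlow cells, and Cd8a was at 4.39 to 4.91 on all arrays. The part of B cell and CD8 T cell transcripts in these differences was not tested.

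Cxcr6 was higher in CD45RBlow than in CD45RBhigh cells by 1.57 (2.97-fold, interval 0.65 to 2.49, adjusted p = 0.0874 by limma). The subsets did not overlap in either genotype, with the values given above. The difference was larger in replicate 1, at 2.63 in wild type and 1.77 in CCR2-/- cells, than in replicate 2, at 1.0 and 0.87. With the replicate number as a block the adjusted p was 0.0296 for the same difference, and 758 genes (5.61%) passed in that fit, 1.95% higher and 3.66% lower.

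The difference of Ccrl2 was -2.03 (4.08-fold lower in CD45RBlow cells, interval -3.80 to -0.25, adjusted p = 0.213 by limma). By replicate number it was -1.09 (replicate 1) and -3.34 (replicate 2) in wild-type cells, and -0.45 and -3.23 in CCR2-/- cells. Without CCR2-/- CD45RBhigh replicate 1, an array with a low value, the difference was -2.87 and passed (adjusted p = 0.0373). That of Fyco1 was -0.46 (interval -0.81 to -0.12, adjusted p = 0.145 by limma, and 0.0556 with the replicate block), at -0.63 in wild type and -0.30 in CCR2-/- cells. Ccr2 differed by 0.22 (interval -0.05 to 0.50), Lztfl1 by 0.06 (-0.15 to 0.28) and Sacm1l by 0.09 (-0.13 to 0.31), with no call. Ccr1 (0.08) and Ccr3 (-0.04) differed little at their low levels.

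**Figure D4:**
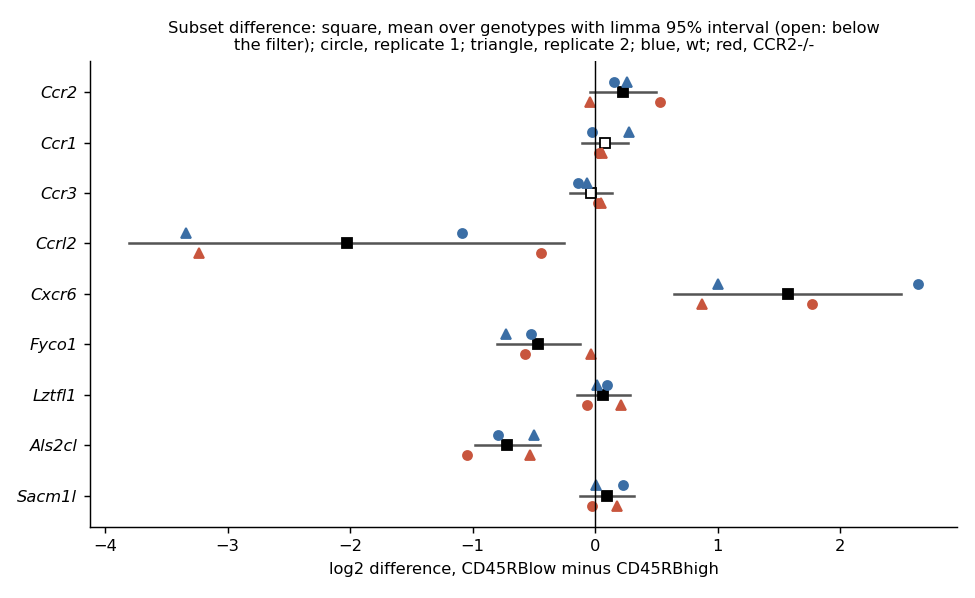
Log2 difference between CD45RBlow and CD45RBhigh cells (horizontal axis) for the 9 genes (vertical axis), as the mean over genotypes with limma's 95% confidence interval (squares, open for the untested genes) and for each genotype and replicate number (circles and triangles, wild type in blue and CCR2-/- in red). Als2cl lies at -0.72 with all 4 points below 0, and Ccrl2 splits by replicate number.

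Of the 7 tested genes, 3 had subsets that did not overlap in either genotype, in one direction: Als2cl and Fyco1 lower, and Cxcr6 higher in CD45RBlow cells. Over all genes tested this held for 20.2%. Across the 8 arrays the 21 pairs of the 7 genes had Pearson correlations from -0.73 (Cxcr6 with Als2cl) to 0.68 (Cxcr6 with Sacm1l), so these neighbours on one chromosome did not move as a block. Among the 25 tested neighbours from the gene-order list, 0 were higher and 3 were lower in CD45RBlow cells, beside 1.1% higher and 1.93% lower of all genes. These were Tcaim, a mitochondrial protein of T cells (-0.58, adjusted p = 0.0238), Ano10, an anoctamin (-0.57, adjusted p = 0.0436), and Vipr1, a receptor for vasoactive intestinal peptide (-0.70, adjusted p = 0.0473), all by limma. The median of the 25 was -0.0041, beside -0.0078 over all genes. With 1 array left out, 0 to 4 of the 25 passed: 4 without CCR2-/- CD45RBhigh replicate 2, 2 without its replicate 1 and 0 without any other array.

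The partners of these receptors were measured on the same arrays. Of the 4 CCR2 ligand genes, 2 passed the filter and both were dim: Ccl2, which encodes the main ligand, had group means of 4.48 to 4.54 and Ccl7 of 4.57 to 4.72. Averaged over subsets they differed between genotypes by -0.03 and -0.07, and neither passed (adjusted p = 0.984 and 0.956 by limma). Of 10 ligand genes of the other receptors 6 were tested and 0 passed for genotype or subset. The CCR1 ligand Ccl3 was bright in every group (means 12.11 to 12.65), with a genotype difference of -0.34 (adjusted p = 0.941). Cxcl16, the ligand of CXCR6, had means of 5.51 and 5.32 in wild-type and 5.06 and 5.10 in CCR2-/- CD45RBhigh and CD45RBlow cells (difference -0.34, interval -0.60 to -0.07, adjusted p = 0.940). Ccl5, a ligand of CCR1 and CCR3, had a subset difference of -2.53 (adjusted p = 0.0720 by limma), and passed with the replicate block (adjusted p = 0.0174).

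Among 18 other chemokine receptor genes 9 were tested, and 0 passed for genotype. Their averaged genotype differences ran from -0.51 to -0.06, with a median of -0.15 beside 0.02 over all genes. The lowest was that of Ccr6, a receptor of Th17 cells (-0.51, interval -1.09 to 0.08, adjusted p = 0.940 by limma). By subset, the difference of Ccr6 was -0.91 in CD45RBlow cells (interval -1.73 to -0.09, adjusted p = 0.9998 by limma). It was -0.10 (-0.93 to 0.72) in CD45RBhigh cells, where means of 4.69 (wild type) and 4.59 (CCR2-/-) lay near the lower limit for testing. Between subsets Ccr4 (1.0, adjusted p = 0.0044) and Cxcr3 (1.18, adjusted p = 0.0126) rose and Ccr7 (-0.94, adjusted p = 0.0303) fell in CD45RBlow cells, by limma. Ccr6 had a subset difference of 0.98 (adjusted p = 0.0880 by limma) and passed with the replicate block (adjusted p = 0.0319). Ccr4 is a receptor of Th2 and regulatory T cells, Cxcr3 one of Th1 cells and Ccr7 the lymph node homing receptor.

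Of 21 tested genes of chemokine receptor signalling none passed for genotype. Jak2 (-0.34) and Gng2, a G protein subunit (0.34), had the smallest p in the average (adjusted p = 0.940 for both by limma). Between subsets Rgs16, which shortens G protein signals, rose (0.91, adjusted p = 0.0469) and Pik3r5, a regulatory subunit of PI3-kinase gamma, fell (-0.55, adjusted p = 0.0270) in CD45RBlow cells. Grk5, a kinase that desensitises receptors, had a subset difference of 0.72 (adjusted p = 0.0602 by limma) and passed with the replicate block (adjusted p = 0.0499).

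The gene sets around Fyco1, Lztfl1 and Sacm1l had no call for genotype or subset. The 12 tested genes of autophagosome transport, the process of FYCO1, had averaged genotype differences from -0.18 to 0.22 with a median of 0.02, and the largest was that of Plekhm1, another adaptor of late endosomes (0.22, adjusted p = 0.940 by limma). Kif5b, the heavy chain of the kinesin that moves FYCO1 vesicles, differed by -0.18. None therefore approached the 0.93 of Fyco1. The 8 tested genes of the BBSome and its partners ran from -0.32 (Bbs4) to 0.15, and the 14 of phosphoinositide turnover from -0.13 (Pitpnb) to 0.13, with Pi4ka at 0.10.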

How the data were processed

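The deposited table holds log2 expression values for 41034 transcript clusters on 8 arrays, each hybridised from 200 ng of total RNA. The submitters' processing notes name RMA and Partek for these values of the authors. Versions and options are not given in the sources used here. Because RMA equalises the distributions of the arrays, a shift of most genes at once would be lost.

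Groups came from the sample titles, where 4 carry the number 2 and the others were taken as replicate 1. The platform annotation names 23521 clusters by 1 symbol and 1814 by several (left out), and 15699 are unnamed. The brightest cluster stood for a gene, which gave 22180 genes. A gene was tested where it reached the 40th percentile on at least 2 arrays (13508 genes). A model with one mean per group (limma 3.58.1, R 4.3.3) covered all 8 arrays (4 residual and 3.36 prior degrees of freedom), with two-sided p-values adjusted by Benjamini-Hochberg over all tested genes and a threshold of 0.05. The calculation was tested on simulated arrays. Precision is limited by the number of arrays: the median standard error of a genotype difference within a subset was 0.145 on the log2 scale.

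Replicate numbers were taken to pair the samples, because the difference of replicate 2 from replicate 1 correlated across genes between all 6 pairs of groups (r = 0.11 to 0.53). The main model has no term for the number, so differences between the numbers count as error in its intervals and p-values. The fit with the number as a block is given where it changes a call, and for the averaged differences of Fyco1.

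The members and lists were chosen with earlier results of these data known. Named are all 9 members, of each list up to 4 that passed (or the 2 with the smallest p for averaged genotype), and the 3 genes most like Ccr2 and each called member. Tmem42, Gask1a, Lars2, Limd1, Ccl5, Grk5 and Phb were named after their values were seen. Gene order and upstream sequences are from RefSeq for GRCm38.p6, and the build behind the array annotation is not given in the sources used here. The results of 1 further gene list are not reported here. Alternatives were 18, of which 8 left out 1 array each.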

Additional observations from a re-analysis of the deposited data

How the results depend on the processing

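No gene among the 9, none of the 25 listed neighbours and no gene at all passed for genotype in either subset, for their average or for the interaction under any of the alternatives run, which were other gene summaries, filters, scalings, empirical Bayes settings, array weights, the replicate block, the arrays compared alone (within a subset) and each array left out. The genotype difference of Fyco1 stayed above 0 in all of them. It ran from 0.52 to 1.01 in CD45RBhigh and from 0.87 to 1.31 in CD45RBlow cells (lowest adjusted p 0.314 and 0.519 by limma). That of Ccr2 also stayed above 0, from 0.23 to 0.42 and from 0.14 to 0.58. Ccr2 had passed the filter through the CCR2-/- arrays, so its stable sign does not test its direction. For the subset effect, 1 of the 7 tested genes passed, 2 with the replicate block, and 0 to 2 when an array was left out. Over all genes 409 passed, 758 with the replicate block and 39 (without wild-type CD45RBlow replicate 1) to 547 with an array left out, and of the neighbours 3 passed, 1 without the filter, 1 with median centring and 0 to 4 with an array left out. The block changed no other call among the 7 than that of Cxcr6.

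Among the 7 tested genes, signs changed only when an array was left out, and for no called value. For Ccrl2 the ranges over arrays left out were -2.12 to 1.24 for genotype in CD45RBhigh, -0.35 to 0.22 in CD45RBlow, -1.09 to 0.59 for the average and -1.30 to 2.05 for the interaction. For Cxcr6 they were -0.81 to 0.71 in CD45RBlow, -0.18 to 0.58 for the average and -1.27 to 0.26 for the interaction. For Lztfl1 they were -0.22 to 0.034 in CD45RBlow, -0.11 to 0.15 for the interaction and -8.93e-04 to 0.13 for the subset effect. For Sacm1l they were -0.19 to 0.11 in CD45RBhigh, -0.14 to 0.016 for the average and -0.19 to 0.11 for the interaction. The interaction ran from -0.19 to 0.26 for Ccr2 and from -0.36 to 0.075 for Als2cl. The cause of these changes was not tested beyond the smaller number of arrays. Genes near the floor of the array, such as Ccr1, Ccr3 and Ccr2, allow no statement about a fall.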
